A study of Mus musculus with 6 samples.

Results

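The genes described here build the primary cilium, the antenna-like projection of a cell, and the centrosome from which it grows. They were taken as the protein-coding rows whose symbol starts with Ift, Bbs, Cep, Nphp, Tctn or B9d followed by a number, together with Alms1, at a mean of at least 1 CPM (counts per 1000000 counts of the library) over the libraries. The rule matched 69 of the 56748 rows of the count table and kept 67. They fall into 14 genes of intraflagellar transport (IFT), 8 of the BBSome, 37 of the centrosome and 8 of the transition zone. The groups follow the symbols, so Cep290, which also acts in the transition zone, counts with the centrosome. The least abundant gene kept was Cep112, at a mean of 2.03 CPM, and the matching rows left out were Cep55 and Cep295nl, at 0.174 and 0.102 CPM.

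RNA was sequenced from whole cerebellum of 6 C57BL/6J mice aged 90 to 120 days, 3 in a MeHg group and 3 in a Control group. Dams of the MeHg mice received methylmercury, an organic mercury compound toxic to neurons, at 0.2 ppm in their drinking water over the whole of pregnancy. Dams of the Control mice received 0 ppm. MeHg 1 and MeHg 3 were labelled female and MeHg 2 male, against Control 1 and Control 2 labelled female and Control 3 labelled male. Dosing ended at birth, so the mice were sampled as adults long after the exposure.

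A primary cilium is templated by the older centriole of the centrosome, which becomes a basal body. Trains of IFT proteins carry cargo along its shaft, the transition zone at its base controls what enters, and the BBSome carries membrane proteins out. In the developing cerebellum, precursors of granule cells need the cilium to read the Sonic hedgehog signal that drives their division. In people, mutations of transition zone genes such as CEP290 and the tectonics cause Joubert syndrome, a malformation of the cerebellum and brainstem.

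The libraries held between 14116088 and 20303833 counts, and 16859 genes were tested. Control 2, labelled female, had the Xist level of a male (0.249 CPM) and 87.2 CPM of the Y-linked Ddx3y, so results are also given without it where it changes them. By these genes MeHg 2, Control 2 and Control 3 were male, so the sexes were not balanced between the groups. Choroid plexus markers, from the secretory tissue next to the cerebellum, summed to 4490, 2615 and 10337 CPM in MeHg 1 to 3, against 3170, 786 and 167 CPM in Control 1 to 3. No label gives the dam or litter, so a p-value here reflects the spread among 6 mice of unknown relation. In bulk tissue, fewer cells of a type and less RNA per cell cannot be told apart.

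The genes were kept for a mean of at least 1 CPM in these libraries, so their detection follows from the rule. On the FPKM scale (fragments per kilobase of gene and unit of library size), which allows levels to be compared between genes, the median over the 6 libraries was 5.84 for IFT genes, 4.03 for BBSome genes, 3.43 for centrosome genes and 3.03 for transition zone genes. In all, 9 of the 67 genes had a mean over 10 FPKM and 4 a mean under 1 FPKM. The highest level was that of Cep76, a partner of the centriole cap that limits centriole duplication, at 35.4 ± 6.01 FPKM in MeHg and 45.8 ± 6.01 FPKM in Control (SD, n = 3 each). Cep170b, a paralog of Cep170, had 28.0 ± 2.56 FPKM in MeHg and 27.5 ± 0.788 FPKM in Control. Ift20, the IFT protein that also sits at the Golgi, had 27.3 ± 3.43 FPKM in MeHg and 26.4 ± 0.334 FPKM in Control. The lowest level was that of Cep128, of the subdistal appendages of the older centriole, at 0.303 ± 0.024 FPKM in MeHg and 0.286 ± 0.0381 FPKM in Control. The BBSome was led by Bbs2 at a mean of 8.71 FPKM over all libraries and the transition zone by B9d1 at 6.92 FPKM.

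Most centrosome genes had a lower level in MeHg, and most transition zone and IFT genes a higher one. Of 37 centrosome genes 25 had a lower level in MeHg, and their median log2 fold change was -0.14. Of 8 transition zone genes 7 had a higher one, with a median of 0.21, as did 10 of 14 IFT genes, with a median of 0.08. The BBSome was even, with 4 higher and 4 lower and a median of 0.01. Over all 67 genes 33 were higher and 34 lower, with a median of -0.00, beside 0.01 over all genes tested.

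Calls rest on edgeR's quasi-likelihood test, with p-values adjusted by Benjamini-Hochberg over all genes tested and a threshold of 0.05. Over all genes tested, 2.36% were called, 0.575% as higher in MeHg and 1.79% as lower. Of the 67 genes 3 were called, all of them lower in MeHg and all of the centrosome group: Alms1, Cep170 and Cep350. Alms1 entered the rule by name, with its lower level in these data already known. Without Alms1, 2 of 66 genes were called, or 3.03%, beside 2.36% of all genes and 2.74% of the 14182 protein-coding genes tested. At an unadjusted p under 0.05, which 24.5% of all genes reached, 11.8% as higher and 12.7% as lower, the 67 genes gave 4 higher and 13 lower. In 7 of the 67 genes every MeHg library lay above every Control library, beside 13.9% of all genes, and in 14 every MeHg library lay below, beside 15.5%. The other 46 genes overlapped between the groups, and 29.4% of all genes did not. No centrosome gene lay wholly above and 12 of 37 lay wholly below, whereas 4 of 8 transition zone genes lay wholly above. These are counts of small groups, and the difference between the groups of genes was not tested.

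**Figure D1:**
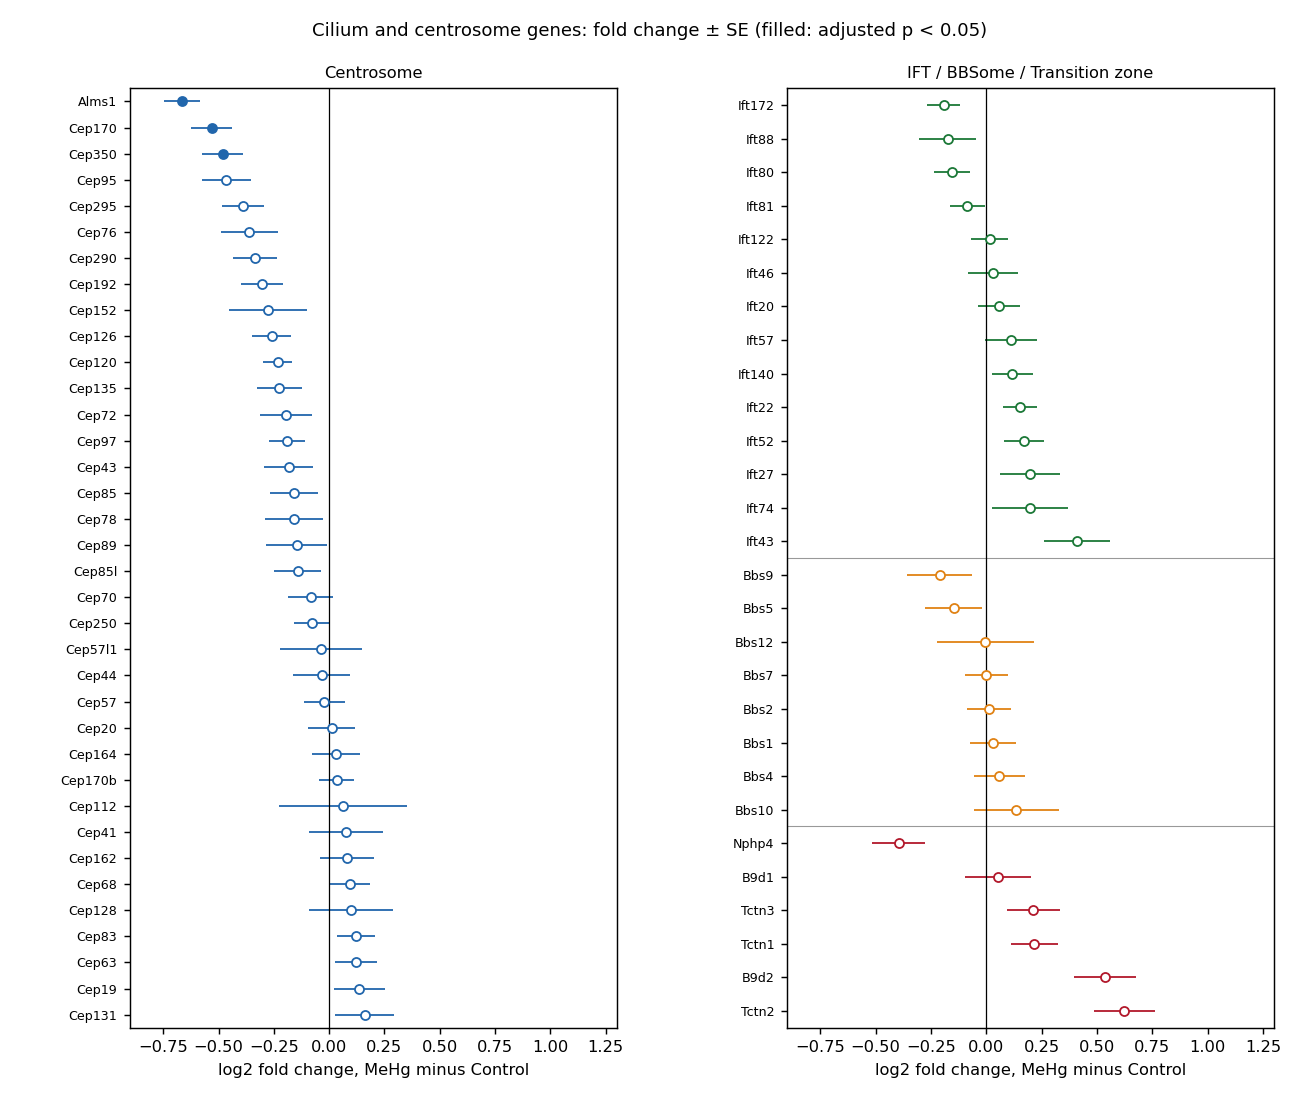
Log2 fold change of each gene reported by name (MeHg minus Control, points) with its standard error (bars), ordered by size within centrosome, IFT, BBSome and transition zone groups; filled points have an adjusted p under 0.05. The 3 filled points, Alms1, Cep170 and Cep350, lie at the lower end of the centrosome group, between -0.66 and -0.48, and Tctn2 lies highest at 0.62.

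Alms1 codes for a large protein at the base of the cilium whose human form is mutated in Alström syndrome. The gene (ENSMUSG00000063810) spans exons and introns of chr6:85564513-85679735 on the plus strand of mm39. Alms1 had 47.3, 45.9 and 41.9 CPM in MeHg 1 to 3, against 73.1, 65.7 and 75.2 CPM in Control 1 to 3. The highest MeHg library lay well under the lowest Control library. The log2 fold change of Alms1 was -0.66 ± 0.08 (SE), with an adjusted p of 0.0431, and it had the smallest unadjusted p of the 67 genes. No gene of the 16859 tested had an adjusted p below 0.0431, so every call lay between that value and the threshold. The value is shared between genes and does not rank them. Cep170 had it too, at an unadjusted p of 0.000258 in the quasi-likelihood test, against 1.8e-05 for Alms1. Its pseudogenes Alms1-ps1 and Alms1-ps2, which could share reads with it, held 2.14% and 1.34% of its count.

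Cep170, a microtubule-binding protein of the subdistal appendages, spans chr1:176561219-176641633 on the minus strand (ENSMUSG00000057335). Cep170 had 138, 149 and 121 CPM in MeHg 1 to 3, against 198, 178 and 213 CPM in Control 1 to 3. The groups did not overlap, and Cep170 stood at -0.53 ± 0.09 on the log2 scale (SE, adjusted p = 0.0431). Cep350, a large centriole protein that recruits Cep43 (FOP) and Cep19, spans chr1:155720710-155849001 on the minus strand (ENSMUSG00000033671). Cep350 had 85.9, 82.2 and 74.2 CPM in MeHg 1 to 3, against 117, 98.6 and 123 CPM in Control 1 to 3. Here too every MeHg library lay below every Control library, and Cep350 stood at -0.48 ± 0.09 on the log2 scale (SE, adjusted p = 0.0433). Neither partner of Cep350 was called: Cep43 had a log2 fold change of -0.18 ± 0.11 and Cep19 one of 0.14 ± 0.12 (SE).

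The calls of Alms1, Cep170 and Cep350 held without MeHg 2 and without Control 2. They were lost without MeHg 1, MeHg 3, Control 1 or Control 3, with adjusted p values of up to 0.207 and with 0 to 2 genes called in the whole table. The log2 fold change stayed between -0.72 and -0.61 for Alms1, between -0.60 and -0.45 for Cep170 and between -0.57 and -0.42 for Cep350 when any library was left out. Without MeHg 2, 7 of the 67 genes were called, beside 6.44% of all genes. Among these, Cep290 and Cep295 were then called lower too, and Tctn2 higher. Without Control 2, 3 were called, beside 1.31%. Without both, a choice made after the data were seen, 9 were called, beside 10.3%.

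**Figure D2:**
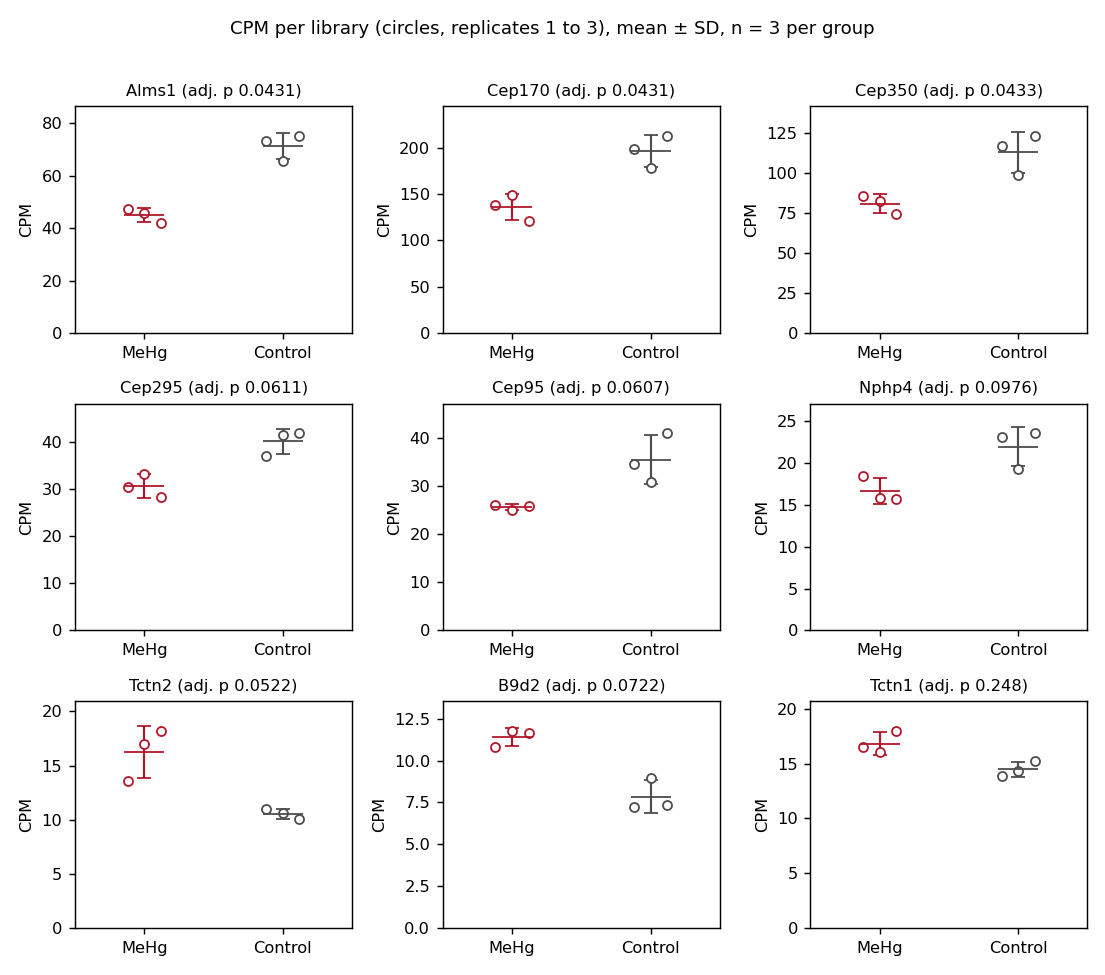
CPM in each library (circles, replicates 1 to 3 from left to right) with mean and SD (bars, n = 3) for 9 genes of the centrosome and transition zone, MeHg to the left of Control, each axis starting at 0. MeHg lies wholly below Control in the upper 6 panels, such as Alms1 with at most 47.3 against at least 65.7 CPM, and wholly above in Tctn2, B9d2 and Tctn1.

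The genes called were also the longest. Alms1, Cep350 and Cep170 are, with Cep295, the members whose length in the deposited table is over 16 kb, and no other member is longer than these. Alms1 is listed at 20.3 kb, Cep170 at 18.0 kb, Cep350 at 16.5 kb and Cep295 at 16.2 kb. In the whole table longer genes had lower log2 fold changes, at a Spearman correlation of -0.21 over 16859 genes that share the same 6 libraries, and of -0.38 over the 67. Of all 322 genes tested over 16 kb, 53 or 16.5% were called lower in MeHg and the median was -0.22, while the 3176 genes under 2 kb had a median of 0.10. The 4 members over 16 kb had a median of -0.51 and the 5 under 2 kb one of 0.14. An offset for length in each library left 0 genes called in the whole table, a share of 0%, and so none of the 67. At an unadjusted p under 0.05 the offset left 3589 genes of the table and 14 of the 67. With the offset Alms1 had a log2 fold change of -0.46 (adjusted p = 0.0749), Cep170 one of -0.34 (adjusted p = 0.0749) and Cep350 one of -0.30 (adjusted p = 0.107). The part of length in these results was not tested beyond this offset.

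The centrosome median, -0.14 over all 37 genes, moved with length as well. It was -0.08 over the 33 centrosome genes under 16 kb, of which 21 were lower, and with the offset it was -0.10 over all 37, of which 23 were lower. With the same offset the transition zone median was 0.26, with 6 of 8 higher, and the IFT median 0.10, with 9 of 14 higher.

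**Figure D3:**
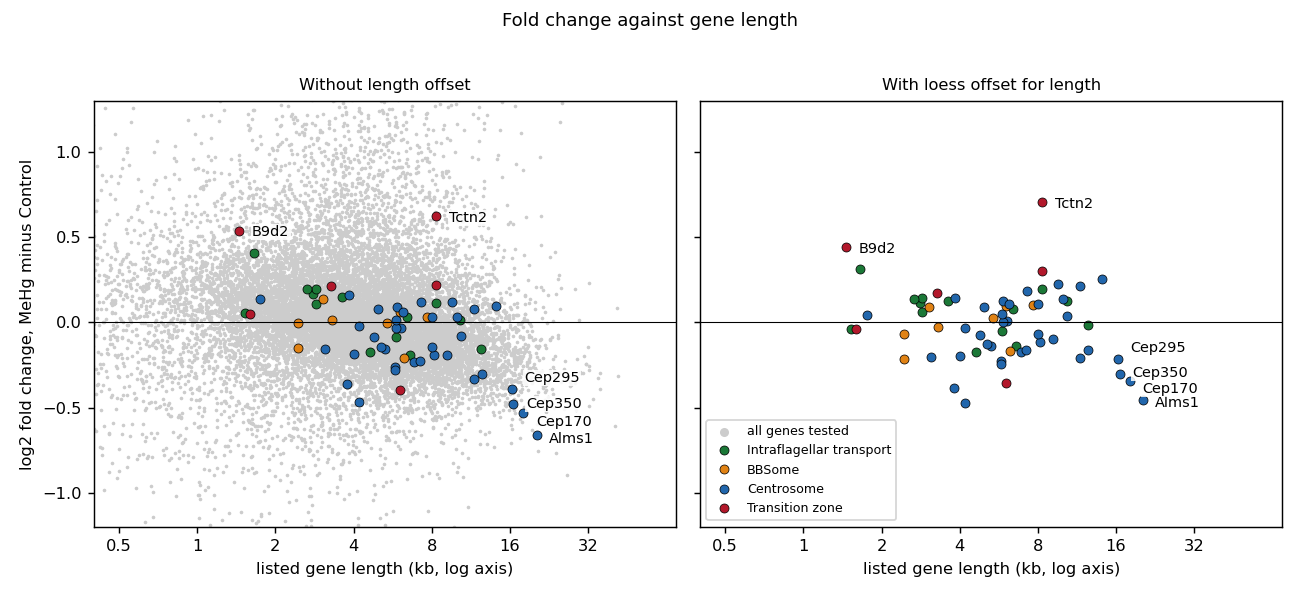
Log2 fold change (MeHg minus Control) against the length of each gene in the deposited table (kb, log axis), without (left) and with (right) an offset for length; grey points on the left are all genes tested, of which those beyond the axes are not drawn, and coloured points the genes reported by name, by group. Alms1, Cep170, Cep350 and Cep295 lie at the long end and below 0 in both panels, at -0.66 and -0.46 for Alms1.

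Among genes of centriole assembly and duplication 9 of 10 were lower in MeHg, with a median of -0.19, and none was called. Cep295, needed to turn a new centriole into a working centrosome, had 30.3, 33.2 and 28.2 CPM in MeHg 1 to 3, against 37.0, 41.5 and 41.8 CPM in Control 1 to 3. Its groups did not overlap and its log2 fold change was -0.39 ± 0.09 (SE, adjusted p = 0.0611), or -0.22 with the length offset. Cep192, a scaffold of the pericentriolar material, had 15.8, 15.8 and 15.7 CPM in MeHg 1 to 3, against 19.2, 19.2 and 19.98 CPM in Control 1 to 3. The spread of Cep192 within MeHg was the smallest of the 67 genes, and its log2 fold change was -0.30 ± 0.09 (SE, adjusted p = 0.103), or -0.16 with the length offset. Cep120, which lets centrioles elongate, had 102, 92.8 and 98.1 CPM in MeHg 1 to 3, against 116, 109 and 120.02 CPM in Control 1 to 3, with an adjusted p of 0.0820. Cep152, which brings the duplication kinase Plk4 to the centriole, had 10.4, 7.85 and 7.15 CPM in MeHg 1 to 3, against 9.94, 9.23 and 11.7 CPM in Control 1 to 3. MeHg 1 lay among the Control libraries, and the adjusted p of Cep152 was 0.370. Its partner Cep63 was the gene of the 10 with a positive log2 fold change, 0.12 ± 0.10 (SE), or 0.23 with the length offset.

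Both genes of the centriole cap had lower mean levels in MeHg. Cep76 had 165, 119 and 147 CPM in MeHg 1 to 3, against 185, 160.3 and 208 CPM in Control 1 to 3, so that MeHg 1 overlapped Control 2, and it stood at -0.36 ± 0.13 on the log2 scale (SE, adjusted p = 0.134). Cep97 stood at -0.19 ± 0.08 (SE, adjusted p = 0.198), or -0.10 with the length offset.

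The distal appendages, which dock the centriole to the membrane before a cilium forms, had log2 fold changes on both sides of 0. Cep164, their best known component, had 29.2, 32.9 and 31.6 CPM in MeHg 1 to 3, against 27.4, 34.6 and 29.6 CPM in Control 1 to 3. Its groups overlapped in full and its log2 fold change was 0.03 ± 0.11 (SE). Its value with the length offset was 0.14. Cep83 had 0.12 ± 0.09, or 0.19 with that offset, and Cep89 -0.15 ± 0.14 (log2 fold change, SE). The linker that ties the centrioles of a pair gave -0.08 ± 0.08 for Cep250 and 0.09 ± 0.09 for Cep68 on the same scale.

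Of 7 genes of centriolar satellites, the axoneme or the ciliary base, 4 were higher and 3 lower, with a median of 0.01. Cep290, which ties the transition zone membrane to its microtubules, had 22.4, 27.2 and 23.0 CPM in MeHg 1 to 3, against 30.5, 29.9 and 31.0 CPM in Control 1 to 3. Its MeHg libraries all lay below Control and its log2 fold change was -0.33 ± 0.10 (SE, adjusted p = 0.0926), or -0.21 with the length offset. Cep131, of the satellites, had the highest fold change of the centrosome group, 0.16 ± 0.13 (SE, adjusted p = 0.493).

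Of the remaining 7 Cep genes, whose roles are less settled or more varied, Cep95 had the lowest log2 fold change. Cep95 had 26.2, 25.0 and 26.0 CPM in MeHg 1 to 3, against 34.7, 31.0 and 41.0 CPM in Control 1 to 3, at -0.46 ± 0.11 on the log2 scale (SE, adjusted p = 0.0607). At 4199 bases it is a short gene of the group, and its fold change with the length offset was -0.47. Cep126 followed at -0.26 ± 0.09 (SE, adjusted p = 0.126). Summed over the 37 centrosome genes, the level was 1525, 1479 and 1434 CPM in MeHg 1 to 3, against 1708, 1631 and 1783 CPM in Control 1 to 3. These sums did not overlap. They include Alms1, known beforehand to be lower, and follow the most abundant genes. Among those, Cep170 had means of 136 CPM in MeHg and 196 CPM in Control, and Cep76 had 144 and 185 CPM. Cep170b, the most abundant in CPM, had 240 CPM in MeHg and 234 CPM in Control.

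The 8 genes grouped by symbol as transition zone had higher mean levels in MeHg in all but Nphp4, and none was called. Cep290, counted with the centrosome by its symbol, was lower, at a log2 fold change of -0.33. Tctn2 had 13.6, 17.0 and 18.2 CPM in MeHg 1 to 3, against 11.0, 10.6 and 10.1 CPM in Control 1 to 3. Tctn2 is a tectonic, a secreted or membrane protein of the complex that guards the ciliary gate, and spans chr5:124736812-124765803 on the plus strand (ENSMUSG00000118662). Its groups did not overlap, and its log2 fold change was 0.62 ± 0.14 (SE, adjusted p = 0.0522), or 0.71 with the length offset. B9d2, of the same gate complex, had 10.8, 11.8 and 11.7 CPM in MeHg 1 to 3, against 7.25, 8.98 and 7.33 CPM in Control 1 to 3. Its log2 fold change was 0.54 ± 0.14 (SE, adjusted p = 0.0722).

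Tctn1 had 16.5, 16.03 and 18.0 CPM in MeHg 1 to 3, against 13.9, 14.4 and 15.2 CPM in Control 1 to 3, again without overlap, at 0.22 ± 0.11 (log2 fold change, SE, adjusted p = 0.248). Tctn3 had a log2 fold change of 0.21 ± 0.12 and B9d1 one of 0.05 ± 0.15 (SE), both with overlapping groups. Nphp4, another protein of the ciliary gate, had 18.4, 15.8 and 15.7 CPM in MeHg 1 to 3, against 23.1, 19.2 and 23.5 CPM in Control 1 to 3. It lay wholly below Control at -0.40 ± 0.12 (log2 fold change, SE, adjusted p = 0.0976). The count of Nphp4 is uncertain, since the gene Kcnab2 on the opposite strand overlaps it and holds 972% of its count, with a log2 fold change of 0.32. The sum over the 8 genes was 109.6, 116 and 124 CPM in MeHg 1 to 3, against 98.4, 101 and 102 CPM in Control 1 to 3.

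Promoters of the transition zone genes are shown because 7 of the 8 had a higher mean level in MeHg and because all 6 with a window in the RefSeq promoter table hold a short X-box site in at least 1 window. These 6 genes have 9 windows, and the windows shown are the 6 that hold the site. A further window of B9d2 and the other two of Nphp4 hold none. The X-box is the site of RFX transcription factors, which control many ciliary genes from worms to mammals. Each window runs from 250 bases before to 50 after a start site. The windows come from RefSeq, in a table of build GRCm38.p6, and their mm39 positions from an exact match that found each once in GRCm39. All are written 5′ to 3′ along the gene, with the short site, GTTGCC or its reverse complement GGCAAC, in capitals. In Tctn1, Bbs7 and Cep19 the capitals mark a full X-box, GTTNCC followed by any 2 bases and GGNAAC.
B9d1, chr11:61395720-61396019, plus strand: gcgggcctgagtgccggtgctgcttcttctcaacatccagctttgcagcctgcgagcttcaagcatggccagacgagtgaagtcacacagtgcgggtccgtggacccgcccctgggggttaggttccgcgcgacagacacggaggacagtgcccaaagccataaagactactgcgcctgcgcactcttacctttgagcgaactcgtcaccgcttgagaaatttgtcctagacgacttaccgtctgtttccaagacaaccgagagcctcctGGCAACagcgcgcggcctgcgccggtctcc
B9d2, chr7:25379955-25380254, plus strand: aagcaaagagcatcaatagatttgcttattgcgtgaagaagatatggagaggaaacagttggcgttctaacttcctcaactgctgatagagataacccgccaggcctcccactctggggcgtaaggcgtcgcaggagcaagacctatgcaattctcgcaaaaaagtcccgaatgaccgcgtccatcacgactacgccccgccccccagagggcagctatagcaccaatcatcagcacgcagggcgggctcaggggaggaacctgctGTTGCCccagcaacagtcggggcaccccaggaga
Nphp4, chr4:152562349-152562648, plus strand: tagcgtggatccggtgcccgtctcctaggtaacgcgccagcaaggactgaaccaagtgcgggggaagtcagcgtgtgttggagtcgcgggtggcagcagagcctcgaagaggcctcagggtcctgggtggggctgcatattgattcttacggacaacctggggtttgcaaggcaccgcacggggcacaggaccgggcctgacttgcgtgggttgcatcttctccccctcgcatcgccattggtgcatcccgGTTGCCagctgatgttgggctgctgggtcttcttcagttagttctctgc
Tctn1, chr5:122402474-122402773, minus strand: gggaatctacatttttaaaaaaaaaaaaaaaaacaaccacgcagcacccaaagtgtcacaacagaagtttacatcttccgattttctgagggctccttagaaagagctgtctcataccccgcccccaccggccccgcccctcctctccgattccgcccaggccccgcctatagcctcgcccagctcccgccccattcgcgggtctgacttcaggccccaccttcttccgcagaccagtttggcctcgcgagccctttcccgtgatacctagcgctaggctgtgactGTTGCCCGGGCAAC
Tctn2, chr5:124736562-124736861, plus strand: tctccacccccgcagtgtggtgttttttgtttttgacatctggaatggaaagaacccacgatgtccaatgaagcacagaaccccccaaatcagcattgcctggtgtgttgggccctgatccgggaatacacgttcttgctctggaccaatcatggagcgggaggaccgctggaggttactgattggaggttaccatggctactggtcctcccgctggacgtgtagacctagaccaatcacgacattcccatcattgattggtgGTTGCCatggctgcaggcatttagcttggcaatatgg
Tctn3, chr19:40600626-40600925, minus strand: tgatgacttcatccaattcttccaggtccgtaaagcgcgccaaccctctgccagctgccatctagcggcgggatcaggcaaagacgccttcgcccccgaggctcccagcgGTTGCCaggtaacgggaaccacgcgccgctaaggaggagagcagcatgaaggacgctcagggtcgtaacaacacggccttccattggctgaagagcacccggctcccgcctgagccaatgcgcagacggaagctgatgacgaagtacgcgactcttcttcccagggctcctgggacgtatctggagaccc
Bbs7, chr3:36667489-36667788, minus strand: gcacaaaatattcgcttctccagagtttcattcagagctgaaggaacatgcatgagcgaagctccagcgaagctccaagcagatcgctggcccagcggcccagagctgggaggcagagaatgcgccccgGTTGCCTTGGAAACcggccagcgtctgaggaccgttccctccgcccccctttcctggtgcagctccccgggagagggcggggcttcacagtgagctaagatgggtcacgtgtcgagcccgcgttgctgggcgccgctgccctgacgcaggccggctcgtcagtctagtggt
Cep19, chr16:31918357-31918656, plus strand: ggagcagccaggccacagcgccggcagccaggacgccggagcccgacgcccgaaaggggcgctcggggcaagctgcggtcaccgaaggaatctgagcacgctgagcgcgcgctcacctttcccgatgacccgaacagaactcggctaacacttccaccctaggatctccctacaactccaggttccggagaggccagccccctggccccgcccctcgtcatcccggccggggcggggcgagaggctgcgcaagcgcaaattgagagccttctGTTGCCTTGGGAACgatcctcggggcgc

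Of the 67 genes 57 had a window, 66 windows in all, and a gene counts as holding a site where any of its windows does. The 17492 protein-coding genes with a window have 21263. On either strand the short site was in 22 of 57, or 38.6%, beside 14.3% of 17492 protein-coding genes, and the full site in 3 of 57, or 5.26%, beside 0.497%. Every full site counted holds GTTGCC or GGCAAC in these 3 genes, so both counts share them. By group the short site was in 6 of 6 transition zone genes, 5 of 11 IFT genes, 3 of 8 BBSome genes and 8 of 32 centrosome genes. In 14 of the 22 genes a site lay at or after the first base of the transcript. The 22 genes with a short site had a median log2 fold change of 0.06, beside -0.04 for the 35 without. Nphp4 and Tctn2, which lay on opposite sides of 0, both hold it.

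**Figure D4:**
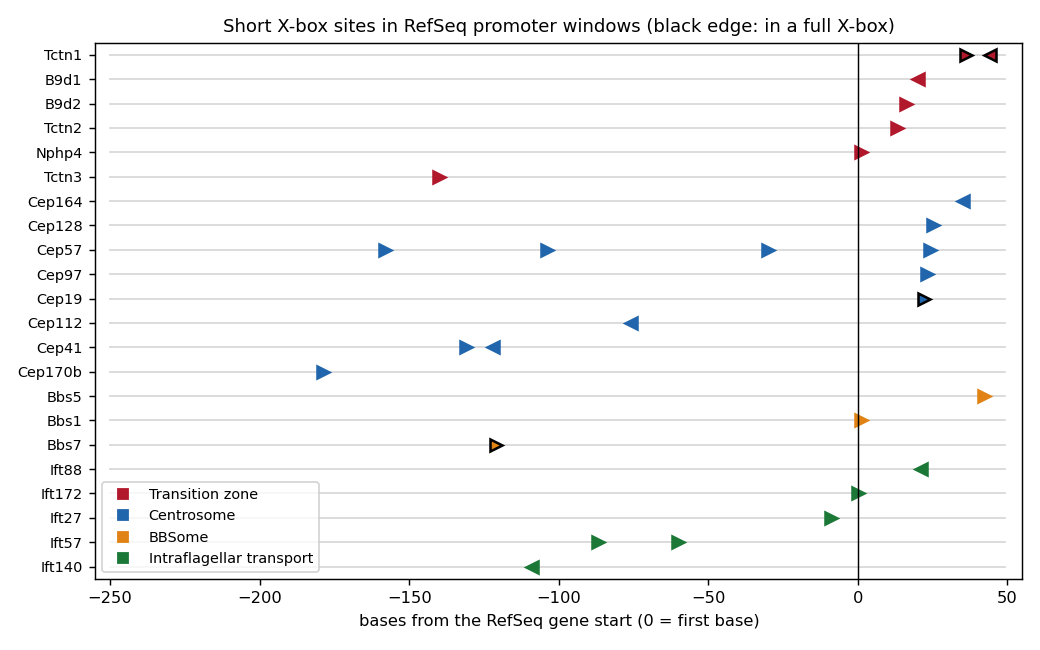
Position of each short X-box site (triangles, pointing right on the gene's strand and left on the other) in the promoter windows of the 22 genes that hold one, as bases from the RefSeq start (0 is its first base); colours give the group and a black edge a full X-box. In 14 of the 22 a site lies at or right of 0, among them 5 transition zone genes.

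Of the 14 IFT genes 10 had higher mean levels in MeHg, and none was called. Ift43, a small subunit of IFT-A, the complex that drives the way back from the ciliary tip, had 8.78, 8.90 and 10.9 CPM in MeHg 1 to 3, against 7.20, 6.73 and 7.55 CPM in Control 1 to 3. Its groups did not overlap, and its log2 fold change was 0.41 ± 0.15 (SE, adjusted p = 0.141). The other IFT-A subunits lay closer to 0, with log2 fold changes of 0.12 ± 0.09 for Ift140 and 0.01 ± 0.08 for Ift122 (SE), or 0.20 and 0.13 with the length offset.

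In IFT-B, the complex of outward transport, 5 of 7 core subunits were higher and 2 of 4 peripheral ones. Ift22, a small GTPase of the core, had 42.8, 41.5 and 46.1 CPM in MeHg 1 to 3, against 38.4, 39.8 and 39.2 CPM in Control 1 to 3. Ift52 had 25.6, 27.1 and 27.9 CPM in MeHg 1 to 3, against 23.7, 25.2 and 22.6 CPM in Control 1 to 3. In both every MeHg library lay above Control by a small margin, at log2 fold changes of 0.15 ± 0.08 and 0.17 ± 0.09 (SE). Ift74, of the pair that binds tubulin, stood at 0.20 ± 0.17 and its partner Ift81 at -0.09 ± 0.08 on that scale. Ift88, whose mutation in mice gives short or absent cilia, had 13.4, 16.4 and 16.04 CPM in MeHg 1 to 3, against 15.3, 18.7 and 17.8 CPM in Control 1 to 3. Its groups overlapped, and it stood at -0.18 ± 0.13 on the log2 scale (SE, adjusted p = 0.434). Ift172, a large peripheral subunit, was the IFT gene that lay wholly below Control, with 76.7, 76.8 and 69.4 CPM in MeHg 1 to 3, against 86.0, 78.6 and 90.3 CPM in Control 1 to 3. Its log2 fold change was -0.19 ± 0.07 (SE, adjusted p = 0.162). The 14 genes summed to 465, 466 and 493 CPM in MeHg 1 to 3, against 470.3, 475 and 471 CPM in Control 1 to 3.

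The BBSome had the median log2 fold change nearest to 0 of the 4 groups. No gene of the 8 was called, reached an unadjusted p under 0.05 or separated the groups. Log2 fold changes ran from -0.21 ± 0.15 in Bbs9 to 0.14 ± 0.19 in Bbs10 (SE). Bbs7, a propeller subunit, had 16.9, 18.3 and 18.8 CPM in MeHg 1 to 3, against 18.0, 18.3 and 17.8 CPM in Control 1 to 3, a log2 fold change of -0.00 ± 0.10 (SE). Bbs1, mutated in many people with Bardet-Biedl syndrome, had 47.5, 42.5 and 39.8 CPM in MeHg 1 to 3, against 39.3, 40.4 and 47.7 CPM in Control 1 to 3. Its groups covered nearly the same range, with a log2 fold change of 0.03 ± 0.10 (SE). Bbs4 stood at 0.06 ± 0.12, Bbs2 at 0.01 ± 0.10, Bbs5 at -0.15 ± 0.13 and Bbs12, one of the chaperonin-like proteins that help assemble the complex, at -0.00 ± 0.22 on the same scale.

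Among genes of the same structures under other symbols, calls fell in the centriole and pericentriolar genes alone. Of these 30 genes 24 were lower in MeHg, with a median of -0.11. In all 3 were called lower, beside 1.79% of all genes: Akap9, Odf2 and Tubgcp6. Akap9, a kinase anchor of the centrosome and Golgi, had 129, 135 and 123 CPM in MeHg 1 to 3, against 174, 155 and 181 CPM in Control 1 to 3 (log2 fold change -0.40 ± 0.07, SE, adjusted p = 0.0431). Odf2, needed for the appendages of the older centriole, stood at -0.31 ± 0.06 (SE, adjusted p = 0.0433) and Tubgcp6, of the ring that nucleates microtubules, at -0.44 ± 0.09 (SE, adjusted p = 0.0495). The calls of Odf2 and Tubgcp6 were lost when any library other than MeHg 2 was left out, and that of Akap9 without MeHg 1, MeHg 3, Control 1 or Control 3. With the length offset all 3 calls were lost, as all calls in the table were. Akap9, listed at 22.1 kb, then stood at -0.18 (adjusted p = 0.154), Odf2 at -0.21 and Tubgcp6 at -0.31 (both adjusted p = 0.102). The 2 genes next in p ran opposite ways without a call: Crocc, the protein of the ciliary rootlet, at 0.40 ± 0.09 (SE, adjusted p = 0.0576) and the satellite scaffold Pcm1 at -0.38 ± 0.11 (SE, adjusted p = 0.0820).

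No gene was called among 9 further IFT genes, 11 ciliary motor genes, 8 Bardet-Biedl genes or 19 transition zone and nephronophthisis genes. Of these 19, 13 were higher, with a median of 0.13, led in p by Mks1 at 0.58 ± 0.19 (log2 fold change, SE, adjusted p = 0.114) and followed by Cplane1 at -0.26 ± 0.09 (adjusted p = 0.126), or -0.11 with the length offset. The IFT-A gene Ttc21b stood at -0.38 ± 0.10 (SE, adjusted p = 0.0733), Wdr19 at -0.10 ± 0.09, or 0.02 with that offset, and the motor subunits Kif3a at -0.34 ± 0.08 (adjusted p = 0.0611) and Dync2i2 at 0.34 ± 0.11 (adjusted p = 0.110) on the same scale. Among the Bardet-Biedl genes Trim32 stood at -0.21 ± 0.06 (adjusted p = 0.0834) and Wdpcp at 0.46 ± 0.22 (adjusted p = 0.238).

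Of 20 genes of the ciliary membrane and Hedgehog pathway 9 were higher and 11 lower, none called. Ptch1, the Hedgehog receptor, had 253, 227 and 216 CPM in MeHg 1 to 3, against 302, 282 and 293 CPM in Control 1 to 3, or -0.33 ± 0.07 on the log2 scale (SE, adjusted p = 0.0507). The channel-like Pkd1 stood at -0.30 ± 0.08 (SE, adjusted p = 0.0768). With the length offset Ptch1 stood at -0.18 and Pkd1 at -0.11. Of 6 RFX factors 3 were higher and 3 lower in MeHg, with a median of -0.095. They summed to 185, 178 and 177 CPM in MeHg 1 to 3, against 186, 201 and 207 CPM in Control 1 to 3. Only Rfx2 was called, and higher: it had 7.85, 6.61 and 9.57 CPM in MeHg 1 to 3, against 3.40, 4.54 and 4.46 CPM in Control 1 to 3, or 0.96 ± 0.20 on the log2 scale (SE, adjusted p = 0.0489). That call was lost when any library other than MeHg 2 was left out.

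Cells with motile cilia share IFT, BBSome and transition zone genes with other ciliated cells. Their markers were higher in MeHg, as most transition zone and IFT genes were by number. The summed IFT level overlapped between the groups, with means of 475 CPM in MeHg and 472 CPM in Control. The summed BBSome level overlapped as well, with means of 167 CPM in MeHg and 168 CPM in Control. Of 20 markers of motile ciliated and ependymal cells 18 were tested and 17 were higher in MeHg, with a median of 1.37. Of the 18 markers 5 were called higher, beside 0.575% of all genes. The markers summed to 121, 135 and 173 CPM in MeHg 1 to 3, against 80.2, 87.2 and 71.2 CPM in Control 1 to 3, and none was at 0 in all libraries. Foxj1, the master factor of motile cilia, had 21.6, 23.2 and 33.2 CPM in MeHg 1 to 3, against 10.1, 13.4 and 11.1 CPM in Control 1 to 3. MeHg 3 was highest both in Foxj1 and in Ift43 and Tctn2. Ttr, a choroid plexus marker, had 2554, 1451 and 6381 CPM in MeHg 1 to 3, against 1742, 358 and 4.5997 CPM in Control 1 to 3, so its groups overlapped. All 12 choroid plexus markers were higher in MeHg, with a median of 1.83, and none was called. The part of these cells in the transition zone and IFT values was not tested.

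Markers of granule cells, the main neurons of the cerebellum, were lower in MeHg, as most centrosome genes were. They summed to 7389, 6314 and 6946 CPM in MeHg 1 to 3, against 9231, 8785 and 8509.8 CPM in Control 1 to 3. All 14 were lower, with a median of -0.35, and 5 were called lower, beside 1.79% of all genes. Markers of brainstem and midbrain neurons were highest in MeHg 2, at 106, 277 and 103 CPM in MeHg 1 to 3, against 39.4, 105 and 57.6 CPM in Control 1 to 3. All 7 of these markers tested were higher in MeHg, with a median of 1.16, and none was called. The part of dissection in these levels was not tested. Markers of cycling cells, in which centrioles duplicate, summed to no more than 7.51 CPM in any library. Other cell types moved beside them, with 1 call or none in each. Of 13 Purkinje cell markers 11 were lower in MeHg, with a median of -0.19 and 1 called lower (Rora), and they summed to 6462 to 8335 CPM in MeHg, against 8389 to 9253 CPM in Control. All 10 endothelial markers were higher, with a median of 0.30 and 1 called (Flt1), and they summed to 199 to 282 CPM in MeHg, against 172 to 191 CPM in Control. All 10 microglial markers were higher, with a median of 0.27 and none called, at 166 to 200.2 CPM in MeHg, against 145 to 157 CPM in Control. All 10 oligodendrocyte markers were higher as well, with a median of 0.29 and none called, though their sums overlapped at 6083 to 8292 CPM in MeHg, against 5395 to 6167 CPM in Control. Of 12 markers of astrocytes and Bergmann glia 7 were higher and 5 lower, with a median of 0.04 and none called. Rora and Flt1 are named after their values were seen. The part of these cell types in the centrosome and transition zone values was not tested.

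**Figure D5:**
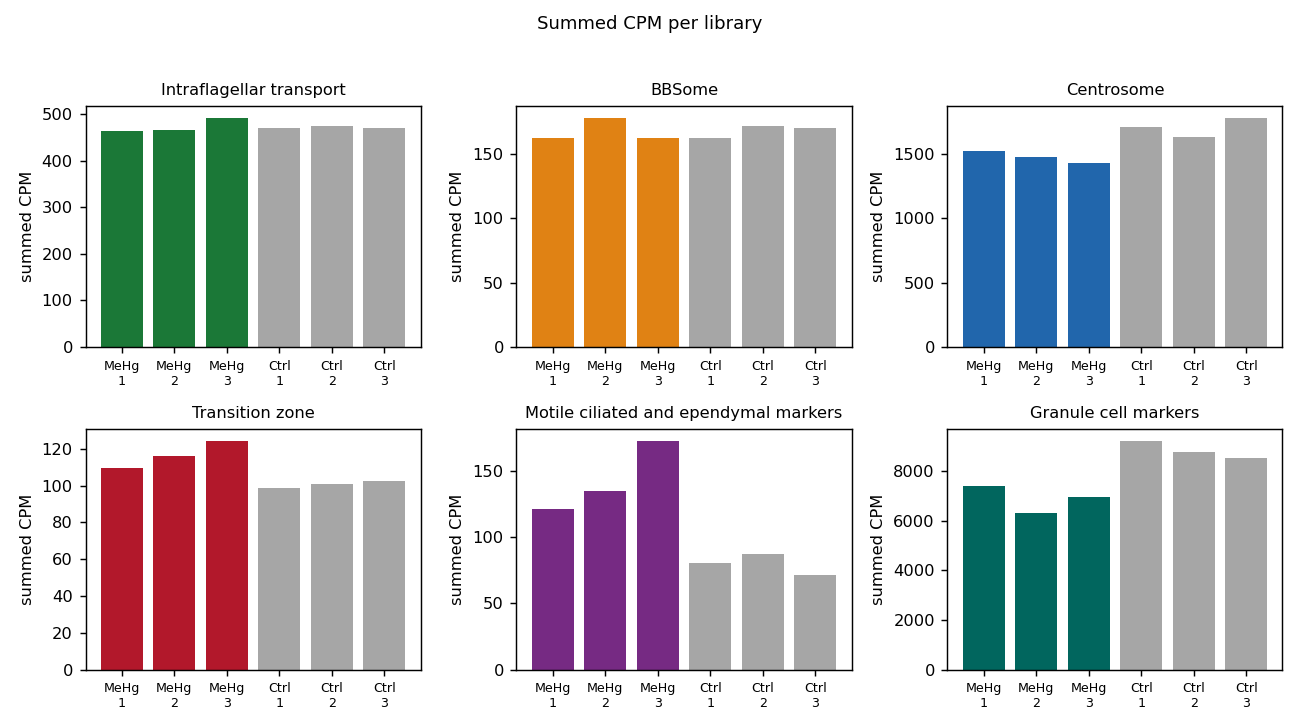
CPM summed in each library over the 14 IFT, 8 BBSome, 37 centrosome and 8 transition zone genes and over markers of motile ciliated and ependymal cells and of granule cells; bars are single libraries, coloured for MeHg and grey for Control (Ctrl), and each axis starts at 0. Centrosome and granule cell sums are lower in every MeHg library, at most 1525 and 7389 CPM, and transition zone and motile cilia sums higher, at least 109.6 and 121 CPM.

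Since the strand handling of the counts is not given in the sources used here, reads of overlapping genes cannot be told apart. Of the 67 genes 35 overlap another listed gene, and in 9 that gene holds at least 10% of the member's own count, in 8 of them on the opposite strand. Besides Nphp4 these include Cep295, where Taf1d holds 72.1% of its count, Cep290 with 4930430F08Rik at 51.4%, Cep63 with Anapc13 at 77.6% and Bbs12 with Cetn4 at 108%. Alms1, Cep170 and Cep350 are not among the 9.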

How the data were processed

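RNA of 6 cerebella, 3 per group, was sequenced. The authors deposited raw whole-number counts per gene and, in a second table, FPKM values. The submitters' processing notes name mm39 and DESeq2. Aligner, counter, annotation and strand handling were not given in the sources used. Columns were matched to the labelled samples by the initial of the group and the replicate number.

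The filterByExpr function of edgeR 4.0.16 (R 4.3.3) kept 16859 genes, and libraries were scaled by TMM. MeHg was set against Control in a quasi-likelihood fit without covariates, and p-values were adjusted by Benjamini-Hochberg over all genes tested. The SE is the absolute log2 fold change divided by the square root of F. CPM are relative to the scaled library size. The length offset is a loess curve per library (span 0.5). Tested on simulated counts of MeHg against Control, the fit found 24 of 66 genes planted with a log2 change of 0.5, 41 of 64 planted with 1 and 55 of 62 planted with 2. It also called 11 of 16433 genes without a planted change. Libraries of a group differed from each other beyond sampling noise, with chi-square values per degree of freedom from 7.74 to 19.6.

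Members and gene lists were chosen with earlier results of these data known, among them the lower level of Alms1. Named were the genes called, the 3 with the smallest p, the extremes of fold change and the highest FPKM of each group, a fixed set of members, and from each further list the genes called or the 2 with the smallest p. A few members are left unnamed here, though counts and sums include them. Others were added for their roles after their values were seen. Alternatives were other scalings, filters and tests (DESeq2 1.42.0, limma 3.58.1), labelled sex or replicate number as terms, the length offset, libraries left out and a threshold of 0.1. All 67 identifiers were found in GENCODE, and for 47 both start and end lie within 1000 bp of its own, on the same chromosome.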

Additional observations from a re-analysis of the deposited data

How the results depend on the processing

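Each count is given for the whole table and then for the 67 genes, beside 398 and 3 in the report. Both counts kept within 1.5 times under DESeq2 size factors (380 and 3), a filter of 1 CPM in 3 libraries (373 and 3) and limma-voom (358 and 3), each calling Alms1, Cep170 and Cep350, and under the length offset with the replicate block (482 and 3). There the 3 were Alms1, Cep76 and Cep95, while Cep170 (adjusted p = 0.0521) and Cep350 (adjusted p = 0.0607) were not called. Upper-quartile scaling gave 197 and 2, no filter on low counts 2378 and 10, DESeq2 1394 and 8, labelled sex as a term 609 and 4, the libraries labelled female alone 166 and 2, and an adjusted p under 0.1 1653 and 11. Limma on log2 FPKM with 1 or 0.1 added gave 0 and 0 (3874 and 3887 genes, 16 and 15 of the 67, at an unadjusted p under 0.05), as did the length offset (3589 and 14). Both settings by labelled sex counted Control 2 as female, though its Xist and Ddx3y levels were those of a male. Leaving out both libraries numbered 2, chosen after the data were seen, gave 1723 and 9. Leaving out single libraries gave 0 to 1091 and 0 to 7. The cause of these changes was not tested.

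The replicate block gave 648 and 5. The numbers were not taken as pairs, since deviations of same-numbered libraries correlated at 0.29, 0.46 and -0.42, and not every library correlated best with its own number.

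No log2 fold change of a named gene changed sign where it was called. Group medians kept their sign under every alternative for centrosome (-0.15 to -0.09), transition zone (0.15 to 0.31) and IFT genes (0.04 to 0.14), but not for the BBSome (-0.03 to 0.04). Depth limits the least abundant members: Cep112 had 23 counts in its shallowest library.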
